A study of Rattus norvegicus with 44 samples.

Results

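Wfs1, Fibcd1, Gpr161, Zfpm2, Pou3f1, Man1a1 and Mpped1 are a set of 7 genes proposed as markers of the identity of CA1 pyramidal neurons. They were taken by symbol from the table of each hippocampal region, 7 of 20003 rows in CA1 and 7 of 20050 in the dentate gyrus (DG), and all 7 passed the filter on low values in both. The RNA came from male rats, 1 hippocampus each, cut into CA1 and DG and frozen. Young vehicle rats (n = 8) and aged vehicle rats (n = 6) received saline into the abdominal cavity, and young LPS rats (n = 8) received lipopolysaccharide, a bacterial endotoxin that provokes inflammation, at 1 mg per kg. Every group was injected weekly for 7 weeks and sampled 48 hours after the last injection. Young rats were 5 to 7 months old and aged rats 14 to 16 months. The labels give no strain, no genetic change and no aged LPS group, and both regions are bulk tissue that holds all its cell types.

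Pyramidal neurons of CA1 carry the output of the hippocampus toward the subiculum and cortex, whereas granule neurons fill the cell layer of DG and project to CA3. Genes with much higher expression in CA1 than in its neighbours are used to mark the field in tissue sections and to judge how cleanly it was dissected. The members do unlike jobs: Wfs1 encodes wolframin, an endoplasmic reticulum membrane protein lost in Wolfram syndrome, and Man1a1 a Golgi mannosidase that trims N-linked glycans. Fibcd1 is a transmembrane receptor with a fibrinogen-like domain, and Gpr161 an orphan receptor of the primary cilium that restrains hedgehog signalling. Pou3f1 is a POU domain transcription factor, Zfpm2 a zinc finger cofactor of GATA factors, and Mpped1 a brain-expressed protein with a metallophosphoesterase domain.

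The 44 libraries held 12130182 to 23519791 recovered reads. Values below are normalized counts, the deposited unit, unless RPM is named, which is recovered reads scaled to the same library total; differences are on the scale of log2(value + 1), which understates the change of low genes, and a gene is called where its adjusted p was under 0.05. No strand or gene length was used, so levels are compared within a gene only. Dentate granule markers were present in the CA1 libraries: C1ql2, a secreted synaptic protein of granule neurons, had a median of 1407 there (range 52.0 to 3000.0) and of 3643 in DG (range 1877 to 4719). Dsp, which encodes desmoplakin, had medians of 344 in CA1 and 886 in DG. Spink8, another CA1 marker, fell below the filter in both regions. The libraries of rats 2526, 2572 and 2532 stood apart for meningeal or choroid plexus markers: the summed choroid plexus list in CA1 was 9050 in young vehicle rat 2526 against a median of 93.8, and the meningeal fibroblast list in DG reached 694 in young vehicle rat 2572 against a median of 157. Aged rat 2532 also stood apart for the members themselves in CA1, as given below.

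In CA1 against DG, 6 of the 7 genes had the higher level in CA1 that the label implies. This does not set CA1 against CA2, CA3 or subiculum, and bulk tissue does not show which cell type holds the RNA. Within each rat, the RPM of Wfs1, Fibcd1, Gpr161, Pou3f1, Man1a1 and Mpped1 was higher in CA1 than in DG in 22 of 22 rats. At the median rat the CA1 level was 6.68-fold the DG level for Fibcd1, 5.36-fold for Gpr161, 4.98-fold for Pou3f1, 4.67-fold for Mpped1, 4.14-fold for Wfs1 and 3.71-fold for Man1a1. Zfpm2 went against the label: DG was higher in 21 of 22 rats, 2.19-fold at the median, with medians over 22 rats of 47.1 RPM in DG and 20.2 RPM in CA1. The exception was aged rat 2532, whose log2 ratio of CA1 over DG was 0.20. The tables were normalized separately, so this comparison is a description without a test, and in bulk tissue fewer cells of a type and less RNA per cell cannot be told apart.

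**Figure D1:**
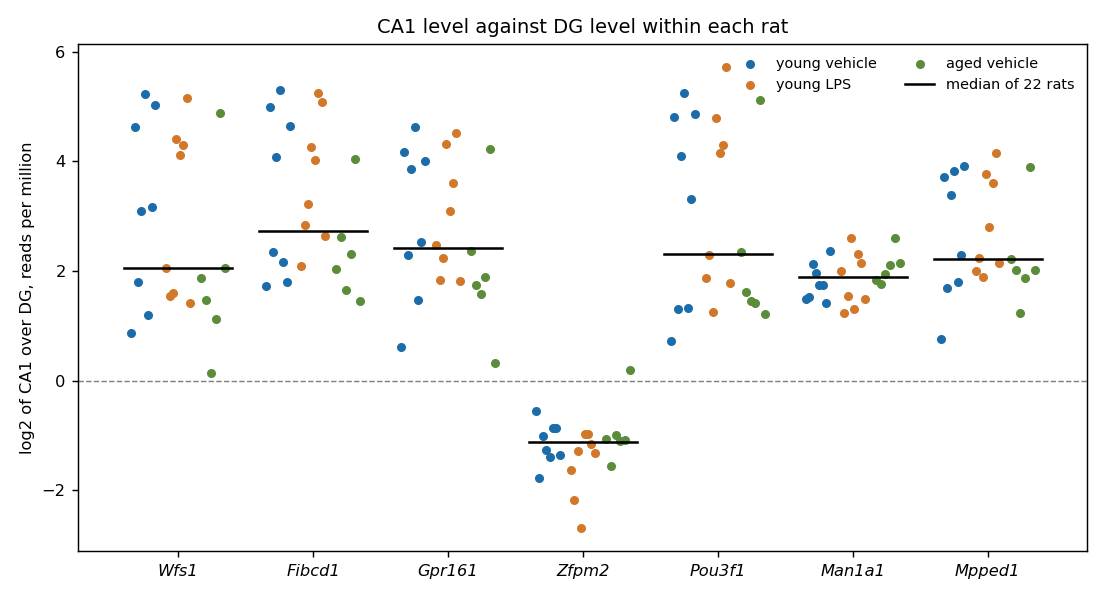
Log2 of the RPM in CA1 over DG (vertical axis) for each member (horizontal axis); each point is 1 rat coloured by group and the bar is the median of 22 rats. Points of 6 members lie above 0 in all rats, while Zfpm2 lies below 0 in 21 of 22.

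The size of the CA1 excess differed greatly between rats. For Wfs1 the log2 ratio ran from 0.14 to 5.23, so that the DG level was 90.6% of the CA1 level in aged rat 2415 and 2.67% in young vehicle rat 2572. Fibcd1 ran from 1.46 to 5.31, Gpr161 from 0.32 to 4.63, Pou3f1 from 0.73 to 5.72 and Mpped1 from 0.76 to 4.16. Man1a1 kept a narrower range, 1.23 to 2.61. For 5 members the spread was wider in DG than in CA1: between the lowest and highest library Wfs1 differed 20.9-fold in DG and 3.73-fold in CA1, and Pou3f1 24.4-fold and 2.13-fold. The other 2 had the wider spread in CA1, Man1a1 with 3.23-fold against 2.18-fold in DG and Zfpm2 with 4.79-fold against 1.78-fold.

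In CA1 of rats given LPS, 6 members had higher fitted levels and Zfpm2 a lower one, but 0 of 7 were called. This comparison asks whether repeated peripheral LPS changed gene expression in young rats. Across all 14915 genes tested in CA1, 0% were called and 6.87% had an unadjusted p under 0.05, against 2 of the 7 members. The median member difference was 0.28 on the log2 scale, where the median over all genes tested was 0.01. No member had groups that did not overlap, and 2 of the 14915 genes did.

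Mpped1 ran from 4969 to 7458 in young vehicle (median 6219) and from 5689 to 9656 in young LPS (median 7244). LPS rats 2717, 2404, 2408 and 2527 lay above the highest vehicle library, and the other 4 lay within the vehicle range. The LPS mean was 7476 ± 1462 (SD, n = 8) and the vehicle mean 6079 ± 913 (SD, n = 8), a log2 difference of 0.29 (SE 0.12, limma adjusted p = 0.654). Pou3f1, the POU factor, ran from 1198 to 1754 in young vehicle (median 1319) and from 1198 to 2545 in young LPS (median 1579). LPS rats 2527, at 2545, and 2404, at 2347, were above every other library. Its log2 difference was 0.29 (SE 0.12, limma adjusted p = 0.654), and 7 of 8 LPS libraries exceeded the vehicle median. Among rats whose numbers begin with 24 (3 LPS against 1 vehicle rat) and 25 (4 against 4), the difference was 0.44 and 0.15 for Pou3f1 and 0.66 and 0.15 for Mpped1.

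Gpr161 ran from 815 to 1223 in young vehicle (median 1033) and from 773 to 1683 in young LPS (median 1327). Here 7 of 8 LPS libraries lay above the vehicle median and 0 of 8 vehicle libraries above the LPS median, although the ranges overlapped. The log2 difference was 0.28 (SE 0.17, limma adjusted p = 0.654). Fibcd1 ran from 3869 to 10136 in young vehicle (median 6550) and from 4609 to 10467 in young LPS (median 9040), a log2 difference of 0.34 (SE 0.19, limma adjusted p = 0.654). Both groups spanned nearly the same range, with more LPS libraries toward its top.

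Wfs1 ran from 12817 to 22671 in young vehicle (median 17840) and from 17124 to 31819 in young LPS (median 18950). LPS rats 2527 and 2543, at 31819 and 27317, were above all vehicle libraries and the other 6 lay within the vehicle range; the log2 difference was 0.28 (SE 0.20, limma adjusted p = 0.659). Man1a1 ran from 658 to 1047 in young vehicle (median 944) and from 603 to 1268 in young LPS (median 1023), a log2 difference of 0.14 (SE 0.15, limma adjusted p = 0.736). Zfpm2, the member that marks DG more than CA1 here, ran from 306 to 432 in young vehicle (median 333) and from 149 to 392 in young LPS (median 289). Its 5 lowest LPS libraries lay below every vehicle library, and the log2 difference was -0.34 (SE 0.20, limma adjusted p = 0.654). The lowest, rat 2527 at 149, was also low for the dentate granule list in CA1. Its mean log2 for that list was -0.99 relative to the other libraries. With a score of other CA1 genes over dentate granule genes in the fit, the Zfpm2 difference was -0.25 (limma adjusted p = 0.549). The part of the dentate granule list alone was not tested.

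**Figure D2:**
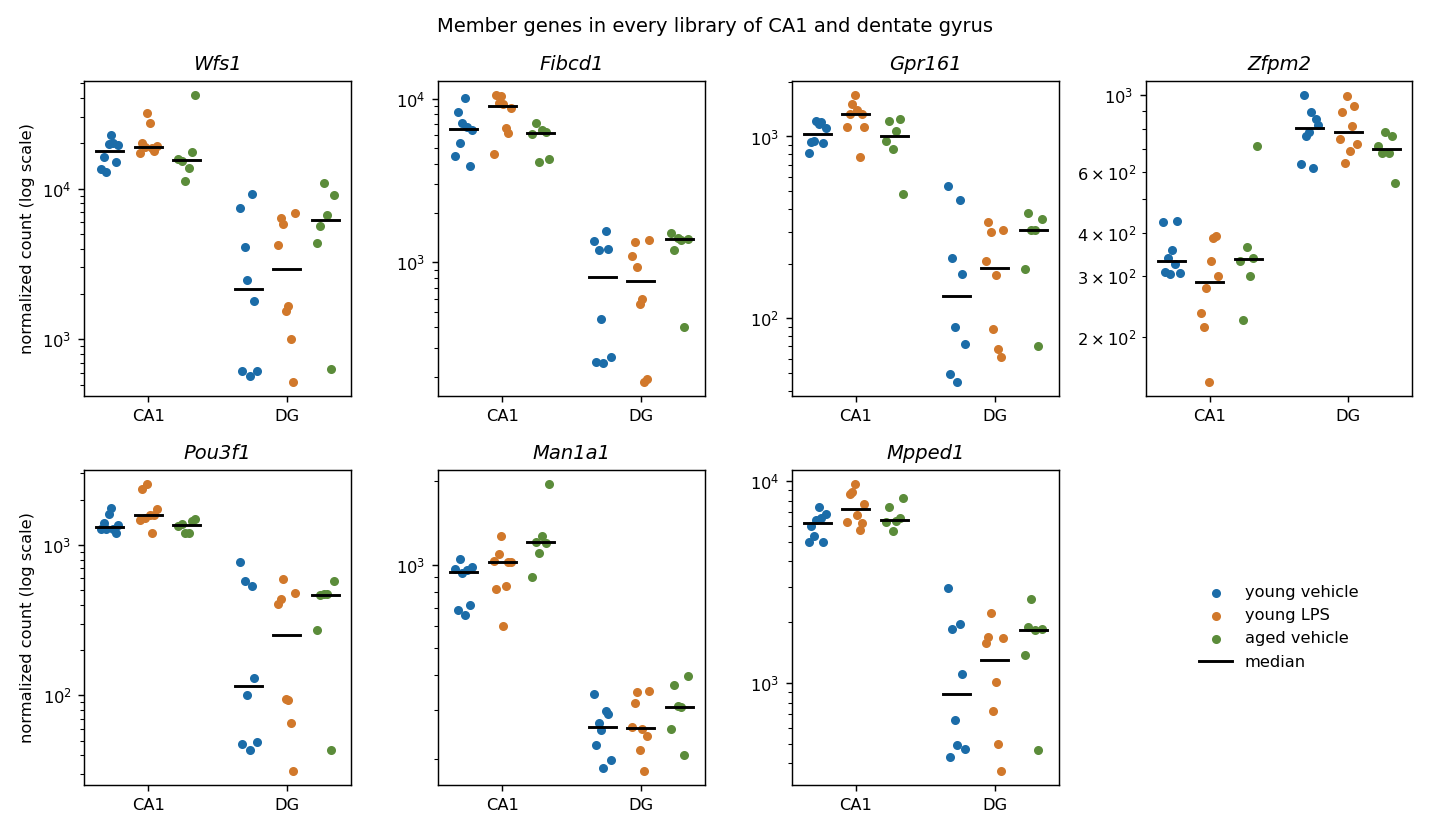
Normalized counts (vertical axis, log scale) of the 7 members in CA1 and DG for each library, coloured by group, with the group median as a bar. In CA1 the groups overlap for every member, with aged rat 2532 far above the rest for Wfs1 at 41628, and in DG 5 members spread over at least 7.99-fold.

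Between aged and young vehicle rats, Man1a1 had the largest fitted difference in CA1 among the 7 members, and 0 of 7 were called. Of all genes tested, 0.0134% were called and 12.6% had an unadjusted p under 0.05, against 1 of 7 members. The median member difference was 0.01, close to the 0.00 of all genes. Man1a1 ran from 658 to 1047 in young vehicle (median 944) and from 904 to 1946 in aged vehicle (median 1202), and 5 of 6 aged libraries were above the highest young one. The means were 1270 ± 354 (SD, n = 6) and 868 ± 153 (SD, n = 8), a log2 difference of 0.53 (SE 0.16, limma adjusted p = 0.393), with a 95% interval from 0.19 to 0.86. Without aged rat 2532, the highest library, the aged mean was 1134 ± 141 (SD, n = 5) and the log2 difference 0.40 (limma adjusted p = 0.763). Among rats numbered from 24 the difference was 0.21 (4 against 1 rat), and among those numbered from 25 it was 0.90 (2 against 4). With the score of other CA1 genes over dentate granule genes in the fit of all rats, Man1a1 was at 0.35 (limma adjusted p = 0.797).

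The fitted age differences of the other 6 members in CA1 lay between -0.17 and 0.16. Wfs1 was 19170 ± 11210 (SD, n = 6) in aged rats, with rat 2532 at 41628 and the next at 17624; the log2 difference was 0.01 (SE 0.21) with that rat and -0.24 without it. Zfpm2 was at 713 in rat 2532 and at 364 in the next aged library, and its log2 difference of 0.03 (SE 0.21) became -0.17 without the rat. Gpr161 was lowest of all CA1 libraries in the same rat, at 486, and had a log2 difference of -0.15 (SE 0.18), or 0.0322 without it. In the same CA1 library the list of other CA1 and pyramidal genes had its highest sum, 15150 against a median of 8604, and the interneuron list its lowest mean log2, -0.59, although its highest sum, 11660; their part in the member values was not tested. The differences of Fibcd1, -0.17 (SE 0.20), Mpped1, 0.16 (SE 0.13), and Pou3f1, -0.05 (SE 0.13), had intervals that included 0.

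Set directly against each other, young LPS and aged vehicle CA1 differed in more genes, though 0 of 7 members were called. This comparison sets the LPS difference against the age difference, both taken from young vehicle rats. Its groups differ in both age and treatment, so it cannot tell those apart or measure how alike they are. The aged and LPS libraries are shared with the comparisons above. Of all genes tested 8.73% were called and 35.8% had an unadjusted p under 0.05, against 4 of 7 members. The mean of Fibcd1 was 8215 ± 2143 (SD, n = 8) with LPS against 5692 ± 1218 (SD, n = 6) in aged rats, a log2 difference of 0.51 (SE 0.20, limma adjusted p = 0.0840). That of Gpr161, the ciliary receptor, was 1283 ± 277 (SD, n = 8) against 969 ± 283 (SD, n = 6), a log2 difference of 0.44 (SE 0.18, limma adjusted p = 0.0900). Pou3f1 was 1745 ± 461 (SD, n = 8) against 1342 ± 118 (SD, n = 6), a log2 difference of 0.34 (SE 0.13, limma adjusted p = 0.0798). Man1a1 had the opposite sign, -0.39 (SE 0.16, limma adjusted p = 0.0925), and Zfpm2 was at -0.37 (SE 0.21, limma adjusted p = 0.207). Wfs1, at 0.27 (SE 0.21), and Mpped1, at 0.13 (SE 0.13), had adjusted p of 0.366 and 0.450 by limma. The groups overlapped for all 7, and of the 14915 genes tested 125 had groups that did not overlap. Without aged rat 2532 Wfs1 was at 0.52, Gpr161 at 0.25, Zfpm2 at -0.17 and Man1a1 at -0.26, with adjusted p from 0.121 to 0.584.

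The background count of this comparison changed with single rats. The count of 1302 called genes became 0 without any 1 of LPS rats 2404, 2408, 2527 and 2717 or aged rats 2420, 2531 and 2532, and 1 or 2 without any 1 of rats 2410, 2415, 2526, 2543, 2571, 2722, 2728 and 2731. It rose to 2631, 3399 and 2245 without rats 2403, 2411 and 2573. With DESeq2 on the recovered reads, Fibcd1 (adjusted p = 0.0450) and Pou3f1 (adjusted p = 0.0411) were called; edgeR called 0 of 7 members. By limma, Fibcd1 was called without rat 2403 (adjusted p = 0.0369), Man1a1 without rat 2411 (adjusted p = 0.0402), and Gpr161 (adjusted p = 0.0452) and Pou3f1 (adjusted p = 0.0446) without rat 2547. Of the lists of other cell types, 1 of 5 CA3 genes and 1 of 7 endothelial genes were called higher with LPS, and 1 of 4 mossy cell genes, 1 of 8 interneuron genes and 1 of 8 microglial genes were called lower. Their part in the member differences was not tested.

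**Figure D3:**
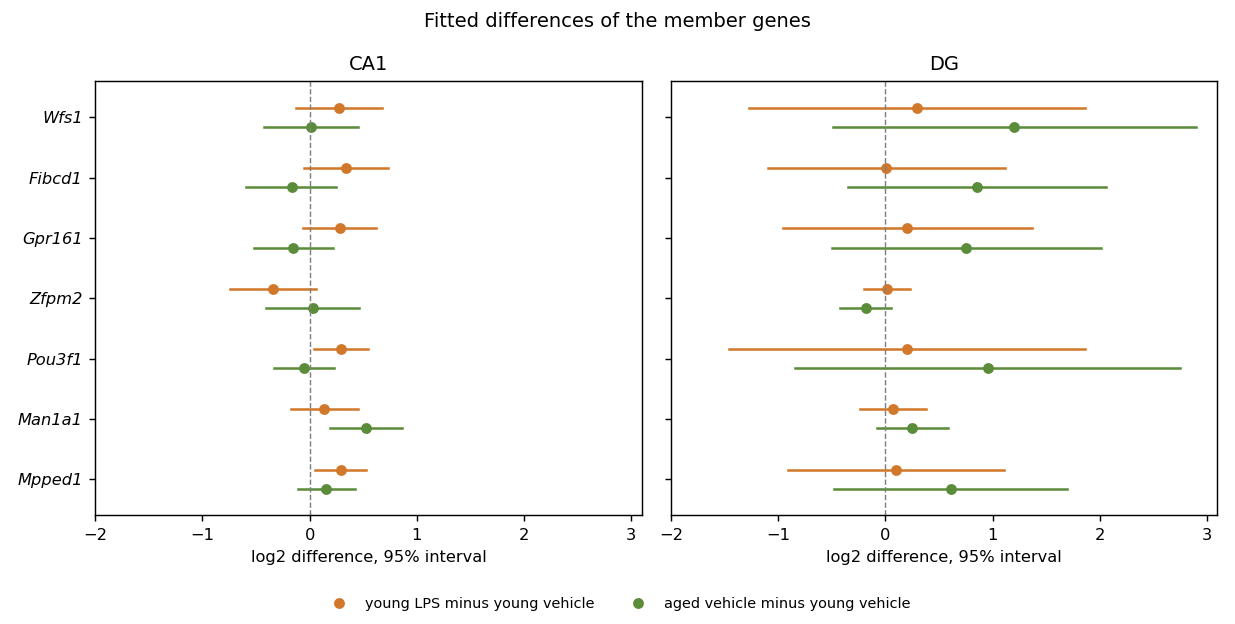
Fitted log2 differences (horizontal axis) with 95% intervals for each member (vertical axis), for young LPS minus young vehicle and aged minus young vehicle, in CA1 and DG. Intervals in DG are several times wider than in CA1 for 5 members, and the points of the age comparison in DG lie to the right of 0 except for Zfpm2.

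In DG 5 of the members varied widely within each group. Pou3f1 ran from 31.6 in LPS rat 2573 to 772 in young vehicle rat 2410, a 24.4-fold range. Wfs1 ran from 522 in LPS rat 2573 to 10922 in aged rat 2415, 20.9-fold. Gpr161 spanned 11.97-fold (44.7 to 535), Fibcd1 8.35-fold (186 to 1552) and Mpped1 7.99-fold (369 to 2946). Man1a1 spanned 2.18-fold (182 to 397) and Zfpm2 1.78-fold (559 to 997). By their SD of log2 values, Pou3f1 and Wfs1 ranked 12 and 14 among the 11010 genes with a mean of at least 100 in DG, and Gpr161, Fibcd1 and Mpped1 ranked 25, 27 and 43. Man1a1 ranked 1647 and Zfpm2 5260. In CA1, among 10950 such genes, Fibcd1 ranked 1638, Zfpm2 1780, Wfs1 1837, Gpr161 2767, Man1a1 3022, Pou3f1 5610 and Mpped1 6713.

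In 17 of 22 DG libraries the 6 CA1-high members lay all above or all at or below their medians. In 8 libraries all 6 lay above their medians, namely 4 aged (2412, 2415, 2420 and 2532), 2 LPS (2404 and 2717) and 2 young vehicle (2410 and 2722). In 9 libraries 0 of 6 did, namely 4 young vehicle (2523, 2571, 2572 and 2731), 4 LPS (2527, 2543, 2547 and 2573) and 1 aged (2531). The other 5 were mixed, with 2 of 6 above in rats 2728 and 2411, 4 in rat 2403 and 5 in rats 2526 and 2408. Pearson r between pairs of these 6 genes, over 22 DG libraries after removal of group means, ran from 0.80 to 0.98 with a median of 0.92. In CA1 the same 15 pairs ran from -0.26 to 0.76 with a median of 0.35. Zfpm2 had r between -0.72 and -0.56 with the other 6 in DG.

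Markers of several cell types differed between these libraries, not all of them in the order of the members. Nov, a secreted matrix protein of CA1, ran from 150 to 1737 in DG. Ndst4, a heparan sulfate enzyme, ran from 26.7 to 511, while Neurod6, a pyramidal neuron transcription factor, ran from 1184 to 3992. The mean log2 of the 4 tested genes on the list of other CA1 and pyramidal genes, relative to the libraries' average, was 1.39 in rat 2410 and -1.39 in rat 2523, and that of the subiculum list was 2.05 in rat 2410 and -2.10 in rat 2531. The subiculum list held 3 genes of unlike spread in DG. Nts ran from 2.22 to 1404, Slc17a6 from 41.4 to 583.5 and Fn1 from 627 to 1285. Neurod6 makes up much of the summed level of the other CA1 list, and that sum followed the members only in part. Its lowest value, 1889, was in rat 2523, low for the members, and its highest, 4837, in rat 2532, high for them. Against the order of the members, it was 4104 in rat 2573 and 3762 in rat 2531, which were low for them. It was 2992 in rat 2420 and 3154 in rat 2722, which were high. The dentate granule list, 6 of 8 genes tested, ran from -0.50 to 0.37. The sum of the CA3 list was 3698 in rat 2410 and 5860 in rat 2415, both high for the members, and 11300 in rat 2543, which was low for them. The oligodendrocyte list had a mean log2 of 0.84 in rat 2410, 0.61 in rat 2532 and -0.48 in rat 2731. The part of the CA3 and oligodendrocyte genes in the member values was not tested. By group, the sums of the other CA1 list, Spink8 included, ran from 1889 to 4491 in young vehicle, from 2211 to 4737 in young LPS and from 2992 to 4837 in aged vehicle, and those of the dentate granule list from 7528 to 10190, 5545 to 9929 and 5930 to 8392. For the other CA1 and dentate granule lists a fit with their score is given below.

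**Figure D4:**
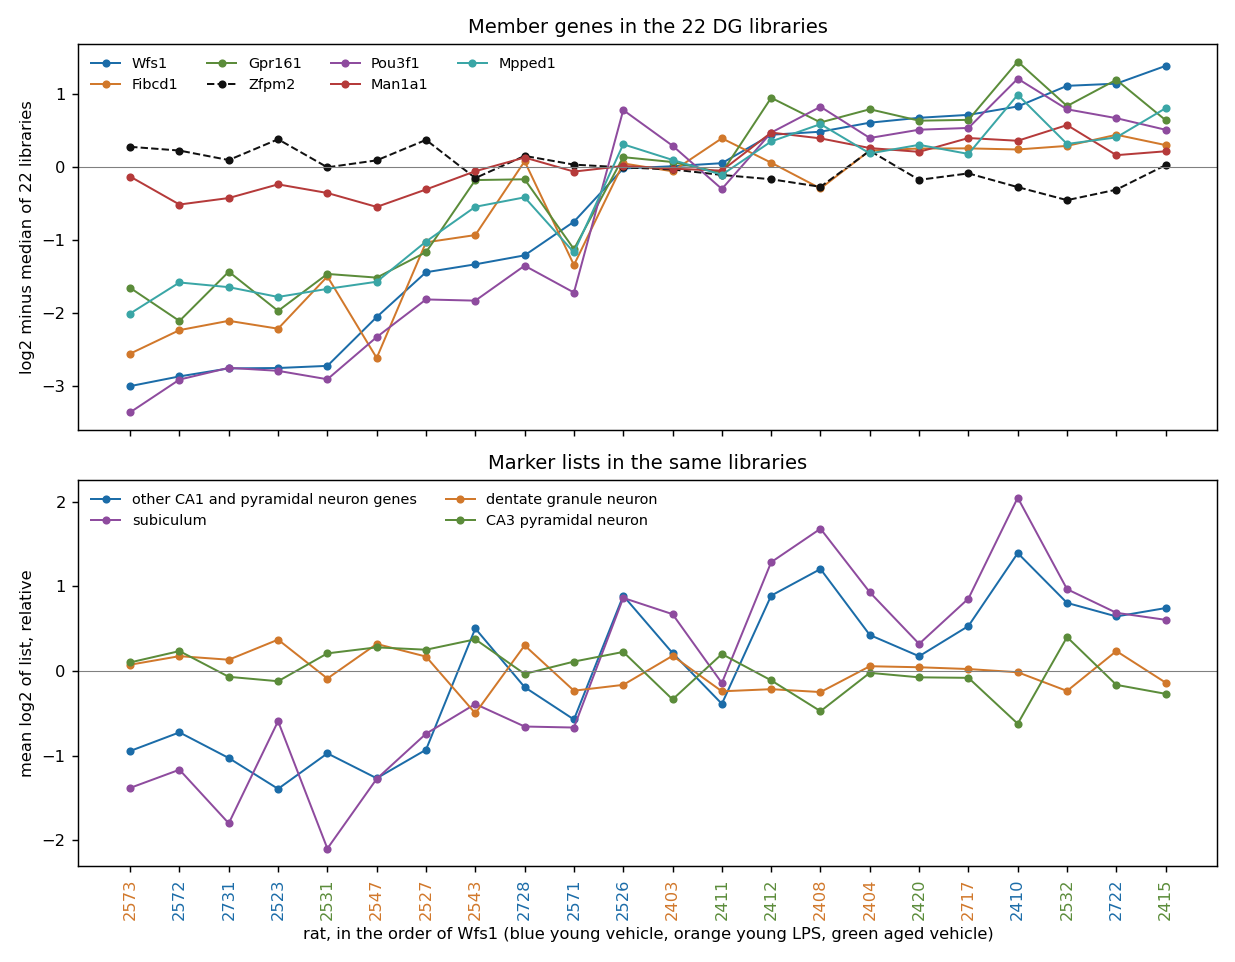
The 22 DG libraries, ordered along the horizontal axis by Wfs1 and named by rat; above, log2 normalized count of each member minus its median over the libraries, and below, the mean log2 of 4 marker lists in the same libraries. The 6 CA1-high members and the lists of other CA1 genes and of subiculum are mostly lower on the left than on the right, the dentate granule list stays between -0.50 and 0.37, and Zfpm2, dashed, drifts the other way.

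The promoter windows of the CA1-high members with an entry were also read, from 250 bases before to 50 bases after the start, as RefSeq gives them for build GRCr8. Their part in the shared pattern in DG was not tested. Entries matched 5 of 7 members, in 6 windows, of Wfs1, Fibcd1, Gpr161, Man1a1 and Mpped1; Pou3f1 and Zfpm2 had none. The windows were searched on both strands for the E-box CANNTG, the core bound by basic helix-loop-helix factors such as Neurod6, and for the octamer ATGCAAAT bound by POU factors such as Pou3f1. The 3 windows with an E-box are printed, with the E-box in capitals. The Wfs1 window is chr14:78034955-78035254, that of Gpr161 chr13:80111526-80111825 and that of Mpped1 chr7:116824504-116824803, all on the plus strand.
Wfs1: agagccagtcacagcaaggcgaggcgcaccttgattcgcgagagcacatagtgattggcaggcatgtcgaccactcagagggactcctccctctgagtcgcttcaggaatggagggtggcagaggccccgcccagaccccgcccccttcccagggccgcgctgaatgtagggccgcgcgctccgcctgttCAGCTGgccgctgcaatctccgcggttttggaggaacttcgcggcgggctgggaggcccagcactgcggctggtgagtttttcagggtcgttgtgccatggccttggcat
Gpr161: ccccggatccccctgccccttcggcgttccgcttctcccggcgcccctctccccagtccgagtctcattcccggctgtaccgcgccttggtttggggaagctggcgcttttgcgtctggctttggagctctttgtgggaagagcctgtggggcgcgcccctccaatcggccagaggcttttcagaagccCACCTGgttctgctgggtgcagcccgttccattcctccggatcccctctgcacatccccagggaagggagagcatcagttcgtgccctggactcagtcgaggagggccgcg
Mpped1: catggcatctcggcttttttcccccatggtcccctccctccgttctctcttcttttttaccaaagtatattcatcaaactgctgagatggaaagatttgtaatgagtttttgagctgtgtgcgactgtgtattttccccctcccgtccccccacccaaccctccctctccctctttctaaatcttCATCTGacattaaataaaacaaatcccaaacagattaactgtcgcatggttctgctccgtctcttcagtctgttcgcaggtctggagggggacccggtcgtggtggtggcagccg

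The single E-box of each began 60 bases before the start in Wfs1 (CAGCTG), 61 in Gpr161 (CACCTG) and 65 in Mpped1 (CATCTG). The windows of Fibcd1 and Man1a1 and the other window of Gpr161 held 0, and none of the 6 windows held the octamer. Of all 33469 promoter windows of this length, 72.1% held an E-box and 1.78% the octamer, so a match is common for the first and rare for the second. The window of Mpped1 was 49.3% G and C with 10 CpG dinucleotides, near the median window (51.7% and 7). Those of Wfs1 (64.7%), Fibcd1 (72.7%) and Man1a1 (73.3%) were richer, above 83.3%, 94.8% and 95.4% of all windows.

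In DG of LPS rats 0 of 7 members were called, and the spread between libraries exceeded every fitted difference. Of all 14904 genes tested in DG 0.0134% were called, and 0 of 7 members and 7.53% of all genes had an unadjusted p under 0.05. Wfs1 ran from 573 to 9226 in young vehicle (median 2148) and from 522 to 6861 in young LPS (median 2937), nearly the same span. The log2 difference was 0.30 with a 95% interval from -1.27 to 1.86 (limma adjusted p = 0.952). Pou3f1 ran from 43.5 to 772 in young vehicle (median 115) and from 31.6 to 591 in young LPS (median 251), a log2 difference of 0.20 with an interval from -1.46 to 1.86. The other 5 members had differences between 0.01 (Fibcd1) and 0.20 (Gpr161). The narrowest interval was that of Zfpm2, -0.20 to 0.23, around a difference of 0.02. Among rats whose numbers begin with 24 (3 LPS against 1 vehicle rat), the difference was -0.46 for Wfs1 and -0.70 for Pou3f1. Among those that begin with 25 (4 against 4) it was -0.36 and -0.67. In the same order, Fibcd1 was at -0.28 and -0.35, Mpped1 at -0.70 and -0.23, and Gpr161 at -0.955 and 0.14. Man1a1 was at -0.15 and -0.06, and Zfpm2 at 0.25 and -0.01. Rats numbered 27 (1 LPS against 3 vehicle rats) went the other way for Wfs1, with mean log2 of 12.744 against 11.089. Pou3f1 was at 8.92 against 7.241 there, Fibcd1 at 10.414 against 9.631 and Gpr161 at 8.268 against 7.487. Mpped1 was at 10.715 against 9.985, Man1a1 at 8.46 against 8.019 and Zfpm2 at 9.496 against 9.562. With these digits in the fit Wfs1 was at 0.10 and Pou3f1 at -0.09.

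With age, 6 members had higher fitted levels in DG, Wfs1 the most, and 0 of 7 were called. Again 0.0134% of all genes were called, and 2.99% of all genes and 0 of 7 members had an unadjusted p under 0.05. The median member difference was 0.76 on the log2 scale beside 0.01 over all genes. Wfs1 ran from 633 to 10922 in aged vehicle (median 6177), with rat 2531 alone below 4337; the log2 difference from young vehicle was 1.21 (SE 0.81, limma adjusted p = 1.00) with an interval from -0.49 to 2.90. Fibcd1 ran from 242 to 1552 in young vehicle (median 816) and from 404 to 1501 in aged vehicle (median 1379), a log2 difference of 0.85 (SE 0.58). In the aged group 5 libraries lay between 1190 and 1501, and rat 2531 alone was at 404. Pou3f1 ran from 43.6 to 577 in aged rats (median 469), a log2 difference of 0.95 (SE 0.86), and Gpr161 from 70.4 to 379 (median 306), a log2 difference of 0.76 (SE 0.60). Mpped1 ran from 432 to 2946 in young vehicle (median 886) and from 466.3 to 2595 in aged vehicle (median 1840), a log2 difference of 0.61 (SE 0.52). Without rat 2531 Pou3f1 was at 1.504 and Mpped1 at 0.94, still with adjusted p of 1.00 by limma. Man1a1 differed by 0.25 (SE 0.16) and Zfpm2 by -0.18 (SE 0.11), with 6 of 8 young libraries above the aged median of 696 and 0 of 6 aged libraries above the young median of 801.

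Between young LPS and aged vehicle rats in DG, 0 of 7 members and 0.0134% of all genes were called, and 9.10% of all genes had an unadjusted p under 0.05. Fitted differences were -0.91 (SE 0.81) for Wfs1, -0.84 (SE 0.58) for Fibcd1, -0.76 (SE 0.86) for Pou3f1, -0.55 (SE 0.60) for Gpr161 and -0.51 (SE 0.52) for Mpped1. Zfpm2 was at 0.20 (SE 0.11) and had the lowest adjusted p of the set, 0.615 by limma. Without rat 2531 Wfs1 was at -1.48, Pou3f1 at -1.31, Gpr161 at -0.90, Mpped1 at -0.85 and Man1a1 at -0.29. With the leading digits of the rat numbers in the fit, described next, Wfs1 was at -0.48, Pou3f1 at -0.24, Gpr161 at -0.25, Mpped1 at -0.18 and Man1a1 at -0.11.

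The leading 2 digits of the rat numbers, 24, 25 or 27, went with different DG levels of several members, although the ranges overlapped. All 8 rats numbered 24 were among the 11 libraries with the highest Wfs1 in DG, from 4213 to 10922. The 10 rats numbered 25 ran from 522 to 9037 with a median of 1274, and the 4 rats numbered 27 from 618 to 9226. Pou3f1 ran from 270 to 772 in the rats numbered 24 and had a median of 79.3 in those numbered 25. The digits were not spread evenly over the groups: of the aged rats 4 were numbered 24 and 2 were numbered 25, of the young vehicle rats 1, 4 and 3 were numbered 24, 25 and 27, and of the LPS rats 3, 4 and 1. What the digits stand for is not given in the labels. Within the rats numbered 24, Wfs1 of aged minus young vehicle was -0.19 in DG (4 against 1 rat), and within those numbered 25 it was 0.79 (2 against 4). Pou3f1 was -0.91 and 0.60, Gpr161 -0.91 and 0.95, Mpped1 -0.65 and 0.38, and Fibcd1 0.01 and 0.83. With the digits in the fit, the age difference of Wfs1 in DG was 0.58, that of Pou3f1 0.15 and that of Mpped1 0.10. With the score of other CA1 genes over dentate granule genes in the fit they were 0.51, 0.19 and 0.12.

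**Figure D5:**
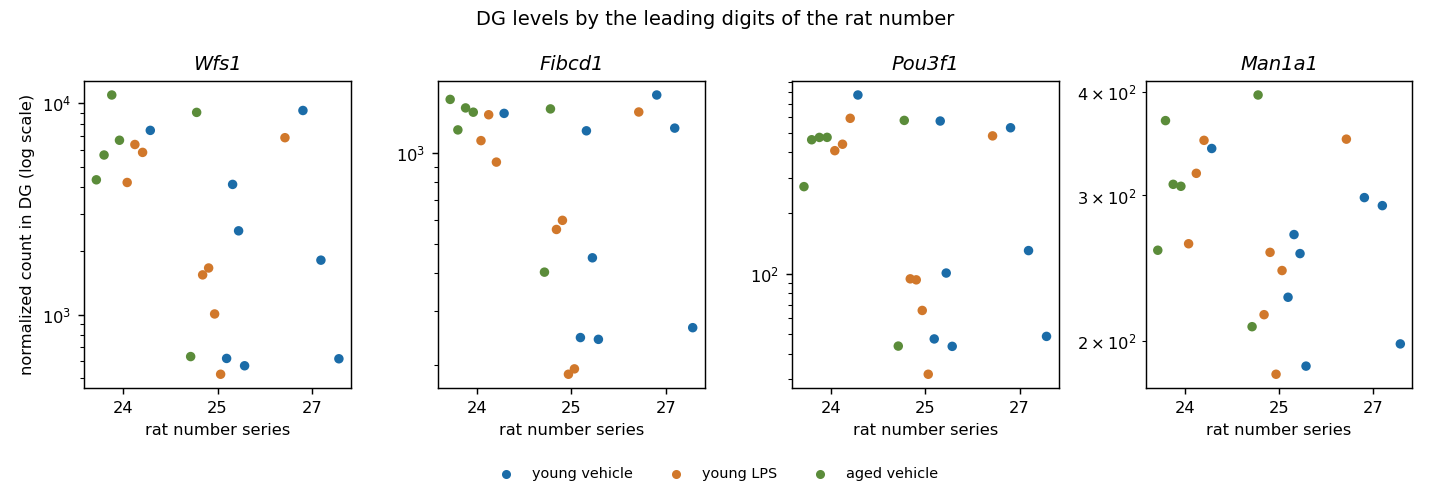
Normalized counts in DG (vertical axis, log scale) of Wfs1, Fibcd1, Pou3f1 and Man1a1 against the leading 2 digits of the rat number (horizontal axis); each point is a library coloured by group. The 8 rats numbered 24 lie in the upper part for Wfs1, from 4213 up, and those numbered 25 reach down to 522 and include low values from all 3 groups.

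Whether the effects differed between regions was tested within rats, as CA1 minus DG, over 14637 genes. For LPS and for age 0% of genes and 0 of 7 members were called, with 13.4% and 5.52% of all genes at an unadjusted p under 0.05. The age difference in CA1 minus that in DG was -1.19 (SE 0.86) for Wfs1, -1.02 (SE 0.66) for Fibcd1 and -1.003 (SE 0.87) for Pou3f1, with limma adjusted p of 0.728, 0.727 and 0.753. With the digits in the fit these were -0.32 for Wfs1, -0.71 for Fibcd1 and -0.20 for Pou3f1, and Pou3f1 was at -1.57 without rat 2531. For young LPS against aged vehicle 12.6% of genes and 0 of 7 members were called, while 33.2% of all genes and 1 of 7 members had an unadjusted p under 0.05. That member was Zfpm2, at -0.57 (SE 0.27, limma adjusted p = 0.134). Fibcd1 had the largest difference, 1.35 (SE 0.66, limma adjusted p = 0.156). Zfpm2 was at -0.31 without rat 2532. The background count of 1844 genes became 0 without any 1 of rats 2404, 2408, 2420, 2532 and 2543, 467 without rat 2415, 991 without rat 2531 and 2794 without rat 2411.

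On the lists of the members' pathways, genes were called only in CA1 between young LPS and aged vehicle rats: 5 of 47 tested, 10.6%, beside 8.73% of all genes, a share near the background. That background was 0 genes without any 1 of 7 rats named above, and 2 or fewer without any 1 of 15 of the 22 rats. Of 12 genes of wolframin and the endoplasmic reticulum stress response, 0 were called higher and 2 lower: Dnajb9, a co-chaperone, at -0.94 (SE 0.27), and Hsp90b1, a chaperone, at -0.34 (SE 0.09), both with limma adjusted p of 0.0490. Of 12 hedgehog and ciliary genes, beside Gpr161, Boc, a hedgehog co-receptor, was called higher at 0.46 (SE 0.13, limma adjusted p = 0.0490). For LPS in CA1 all 12 had positive differences, with a median of 0.08 beside 0.01 for all genes and 0 called. Of 10 N-glycan trimming genes 2 were called lower, Man2a1, a Golgi mannosidase that acts after Man1a1, at -0.51 (SE 0.14) and Mgat2, a glucosaminyltransferase, at -0.40 (SE 0.12), both with limma adjusted p of 0.0490. Among the 6 tested relatives and partners of Pou3f1 and Zfpm2, 0 were called; the largest differences in CA1 were those of Pou2f1, 0.45 (SE 0.20) between LPS and aged rats, and Gata2, 0.43 (SE 0.18) with LPS. Among the 7 tested relatives of Mpped1 and Fibcd1 0 were called; Angpt1, an endothelial growth factor, was at 0.67 (SE 0.26) and Angptl2, a related secreted protein, at -0.62 (SE 0.34) with age in CA1. In DG 0 genes of these lists were called in any of the 3 comparisons, and the largest difference was that of Angpt2, -0.54 (SE 0.47) with LPS.

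Of the 4 tested genes on the list of other CA1 and pyramidal neuron genes, 0 were called in either region. In CA1 with age Nov was at 0.56 (SE 0.19, limma adjusted p = 0.393), near the 0.53 of Man1a1. Ndst4 was at 0.22 (SE 0.25) and Neurod6 at -0.12 (SE 0.13). In DG with age Nov was at 0.69 (SE 0.59), a standard error close to that of Fibcd1. Dentate granule genes in CA1 had negative age differences for 6 of 6 tested genes, with a median of -0.37 and 0 called, C1ql2 being at -1.03 (SE 0.64). With LPS 4 of 6 were negative, Dsp being at -0.71 (SE 0.47).

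Genes whose pattern was most like the mean of the 7 members were found by Pearson r with their mean standardized value, after removal of group means, over the 22 libraries of a region, with no test. In CA1 the members followed this mean unevenly, with r of 0.93 for Mpped1, 0.37 for Man1a1, 0.34 for Gpr161 and -0.23 for Zfpm2. In DG Zfpm2 was at -0.56, and the other members lay between 0.89 (Man1a1) and 0.97 (Mpped1). In DG the 5 highest among 13006 genes were Nts, which encodes the neuropeptide neurotensin (r = 0.96, 2.22 to 1404), Ptpru, a receptor phosphatase (r = 0.95), Lyzl4 (r = 0.94), Adgrl2, an adhesion receptor of CA1 and subiculum (r = 0.94, 41.3 to 958), and Htr5b, a serotonin receptor gene (r = 0.93, 27.3 to 298). Nts is also on the subiculum list described above. The 3 genes with the lowest r in DG were Tars (r = -0.79), Acsl4 (r = -0.80) and Pgm2l1 (r = -0.81). Among 13008 genes in CA1 the 5 highest were Galnt9 (r = 0.80), Nfam1 (r = 0.80), Pcdhga4 (r = 0.79), Sh3rf1 (r = 0.78) and Inhbb (r = 0.76), and the lowest were Cpne9 (r = -0.75), Sytl2 (r = -0.76) and Hdac8 (r = -0.81). The 2 lists of highest genes shared no gene, and the libraries behind each r also share depth and dissection.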

How the data were processed

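Polyadenylated RNA of CA1 and DG from 22 male rats was sequenced as 44 libraries (Ion Total RNA-Seq kit, per the labels' protocols). The authors deposited normalized read counts, a signal that is never negative, in 1 table per region; the submitters' processing notes list STAR, Partek, DESeq2 and rn6 without a role or version. Each library's values are multiples of 1 read; within a tolerance of 0.1 these gave whole reads for 99.8% of low values in CA1 and 100.0% in DG.

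Genes with at least 10 in at least 6 libraries were tested with limma 3.58.1 (R 4.3.3; trend, robust) on log2(value + 1), 3 groups in 1 fit, with Benjamini-Hochberg adjustment over all genes and a threshold of 0.05. CA1 minus DG was tested within rats: the labels give both regions of a rat 1 number. Same-rat deviations from group means had a median correlation of 0.05, above 0.1 in 8 of 22 rats. The fits were tested on simulated data. The 7 members are always named; other genes were named from lists, where called or, if none, up to 2 by largest change, together with all tested genes of the other CA1 list and the genes most alike. Members and lists were chosen with earlier results of these data known. Alternatives were other pseudocounts, filters, TMM, edgeR 4.0.16, DESeq2 1.42.0, the groups in the fit, rat number digits, a dissection score and left-out rats. Results for some list genes are not reported here.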

Additional observations from a re-analysis of the deposited data

Results flagged for a closer look

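Of 42 groups of 1 member in 1 region and arm, 4 held a library whose gap to its nearest neighbour was large for the range of its group (Dixon's criterion). Chance flags about 1 in 20 independent groups. These groups share libraries between members and are not independent, so that rate is no measure for the 4 flags. In CA1 of aged vehicle rats, rat 2532 was highest for Wfs1 at 41630 (nearest 17620), for Zfpm2 at 713 (nearest 364) and for Man1a1 at 1946 (nearest 1261). In DG of aged vehicle rats, rat 2531 was lowest for Fibcd1 at 404 (nearest 1190). Rat 2531 was also the lowest aged library in DG for Wfs1, Gpr161, Pou3f1, Man1a1 and Mpped1.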

How the results depend on the processing

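Member results rest on 6 to 8 rats a group, and DG intervals are wide. Over all alternatives, single members kept their direction and side of the threshold in 1835 cases, changed sign in 77 and passed the threshold in 6; counts and medians stayed close in 656 and moved in 82. The causes were not tested.

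Without the replicate block of the rat, in an unpaired fit of CA1 minus DG, 1916 genes were called for young LPS against aged vehicle (1844 with it), and 0 members were called with or without it.

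Genes called for young LPS against aged vehicle in CA1 (1302) were 2144 with edgeR, 3299 with DESeq2 (2 members), 3 with no filter, 2910 with the rat number digits, 3 with the dissection score, 0 with only the groups compared and 5 without rats 2526, 2572 and 2532. For age in CA1 (2) they were 7 with DESeq2, 0 with the digits, 0 with the score, 1 with only the groups compared and 1 without the 3 rats, and for LPS in CA1 (0) 1 with DESeq2. For age in DG (2) they were 4 with DESeq2, 1 with the digits and 1 with only the groups compared. For young LPS against aged vehicle in DG (2) they were 22 with DESeq2, 1 with edgeR, 0 with no filter, 0 at a pseudocount of 0.25, 8 with the digits, 4 with only the groups compared and 1 without the 3 rats. For the same comparison of CA1 minus DG they were 1114 with no filter and 103 without the 3 rats.

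Signs changed mainly for small LPS differences in DG. With DESeq2 Fibcd1 was -0.0515, Gpr161 -0.0798, Pou3f1 -0.0250 and Mpped1 -0.0179, and with edgeR -0.0511, -0.0750, -0.0171 and -0.0155. With the digits Fibcd1 was -0.0414, Pou3f1 -0.0902 and Mpped1 -0.0844, with the score -0.137, -0.0407 and -0.0537, and without the 3 rats Fibcd1 was -0.0588. For age in CA1 Wfs1 was -0.0354 with the score, and without the 3 rats Wfs1 was -0.245, Gpr161 0.0414 and Zfpm2 -0.172. In CA1 minus DG Wfs1 with LPS was 0.285 with the digits and 0.111 without the 3 rats, Mpped1 with age was 0.104 with the digits and Zfpm2 with age -0.0737 without the 3 rats.

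Leaving out each rat in turn, calls ran from 0 to 3399 for young LPS against aged vehicle in CA1 (members from 0 to 2), from 0 to 2794 in CA1 minus DG, from 0 to 3 in DG, from 0 to 3 for age in CA1 and from 0 to 1 for LPS in CA1. For LPS in DG Fibcd1 ran from -0.183 to 0.258, Gpr161 from -0.0252 to 0.482, Pou3f1 from -0.0600 to 0.547, Mpped1 from -0.0680 to 0.327 and Zfpm2 from -0.0341 to 0.0645. For age in CA1 Wfs1 ran from -0.242 to 0.138, Gpr161 from -0.239 to 0.0322 and Zfpm2 from -0.174 to 0.159. In CA1 minus DG with LPS Wfs1 ran from -0.334 to 0.300, Gpr161 from -0.249 to 0.333, Pou3f1 from -0.253 to 0.401, Man1a1 from -0.0362 to 0.153 and Mpped1 from -0.0779 to 0.373, and with age Zfpm2 from -0.0511 to 0.339.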
